A study of Mus musculus with 20 samples.

Results

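The question of how far the liver's response to perfluorooctanoic acid (PFOA, a persistent fluorinated surfactant) depends on the receptor PPARα was addressed as a difference of differences. The PFOA response of livers from PPARα knockout mice (KO) was set against the PFOA response of livers from mice expressing human PPARα (hPPARa). Bulk liver RNA was sequenced, and all 20 libraries of the series entered the comparison, chosen by the genotype, exposure and sex in their titles. They were 6 KO libraries on PFOA (3 female, 3 male), 4 KO libraries on vehicle (1 female, 3 male), 5 hPPARa libraries on PFOA (2 female, 3 male) and 5 hPPARa libraries on vehicle (3 female, 2 male). From weaning, for 6 to 7 weeks, PFOA mice drank water with 0.5% sucrose and PFOA, given as 8 µm in the design text and read here as 8 µM, and vehicle mice drank the sucrose water alone. Every group ate 1 custom diet, in which carbohydrate gave 51.8%, fat 33.5% and protein 14.7% of the energy. The sources used here do not give the strain, the part of Ppara that the knockout lacks or the promoter that drives the human receptor. Nothing in the labels states that each sample is a different mouse. The p-values therefore weigh differences only against the spread of these samples, and that spread may be technical.

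PPARα is a nuclear receptor that, paired with RXR, binds DNA when fatty acids or similar acids occupy it and switches on genes of fatty acid oxidation in peroxisomes, microsomes and mitochondria. CAR and PXR are related receptors that respond to foreign chemicals and switch on cytochrome P450, glutathione transferase and transporter genes in hepatocytes. PFOA is known to act on PPARα, and CAR activation by perfluorinated acids is known from rodent liver.

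The libraries held between 14973673 and 17953860 counts, and 14341 genes passed the filter on low counts. Ppara itself, the targeted gene, had 8.43 to 25 CPM (counts scaled to library size with TMM factors) in KO PFOA livers and 19.9 to 22.4 in KO vehicle livers, against 21.3 to 39.5 in hPPARa PFOA livers and 17 to 27 in hPPARa vehicle livers. These counts do not check the genotype labels, since the sources do not say which exons are removed. Hepatocyte marker genes summed to between 72100 and 214000 CPM in each library. KO female vehicle replicate 1, the only library of its kind, stood apart. It had 61.4 CPM of the bile duct keratin gene Krt19, where KO PFOA livers reached 0.699, KO male vehicle livers 3.6 and hPPARa livers 1.53, and 74.7 CPM of Ly6d, where KO PFOA livers reached 1.33, KO male vehicle livers 2.02 and hPPARa livers 2.8. It also held 1.88 CPM of the Y-linked Ddx3y, KO female PFOA replicate 2 held 4.06 CPM of it, and KO male PFOA replicate 2 held 30.8 CPM of Xist, made from the inactive X in females. The main counts and the called differences of named genes are therefore also given without KO female vehicle replicate 1. Without it the KO response comes from males, because the KO females then have no vehicle library. The hPPARa response still comes from both sexes, so differences without that library set KO males against hPPARa livers of both sexes.

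The PFOA responses of KO and hPPARa livers differed for 176 of 14341 genes (1.23%) by edgeR's quasi-likelihood test at a Benjamini-Hochberg adjusted p under 0.05. The difference, KO minus hPPARa on the log2 scale, was above 0 for 68 genes (0.474%) and below 0 for 108 (0.753%), and it was at least 2-fold for 36 and 60 of them. Its median over all genes tested was 0.000389. Without KO female vehicle replicate 1 the count was 82 of 14521 genes (0.565%), with 40 above 0 (0.275%) and 42 below 0 (0.289%), and 62 of the 176 genes were among them. The counts were also lower without hPPARa female PFOA replicate 1 (74 genes), hPPARa female PFOA replicate 2 (89) or KO male PFOA replicate 2 (89).

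Both genotypes responded to PFOA. In KO livers 2291 genes changed (16%), 1257 upward (8.77%) and 1034 downward (7.21%). In hPPARa livers 3502 genes changed (24.4%), 1912 upward (13.3%) and 1590 downward (11.1%). The genotypes shared 1288 of these genes, which were 56.2% of the KO calls and 36.8% of the hPPARa calls, and 1274 of the shared genes moved the same way. Leaving out KO female vehicle replicate 1, 1568 genes changed in KO livers and 3644 in hPPARa livers, and they shared 1020, of which 1012 moved the same way. Across all 14341 genes the log2 fold changes of both genotypes had a Pearson correlation of 0.666, a description over genes that are not independent replicates. Of the 176 genes whose responses differed, 105 had a KO response under 0.25 of the hPPARa response or of opposite sign, 32 had a KO response of 0.25 to under 1 of it, and 39 responded more in KO. Among the 62 genes that also passed without KO female vehicle replicate 1, these numbers were 35, 11 and 16.

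**Figure D1:**
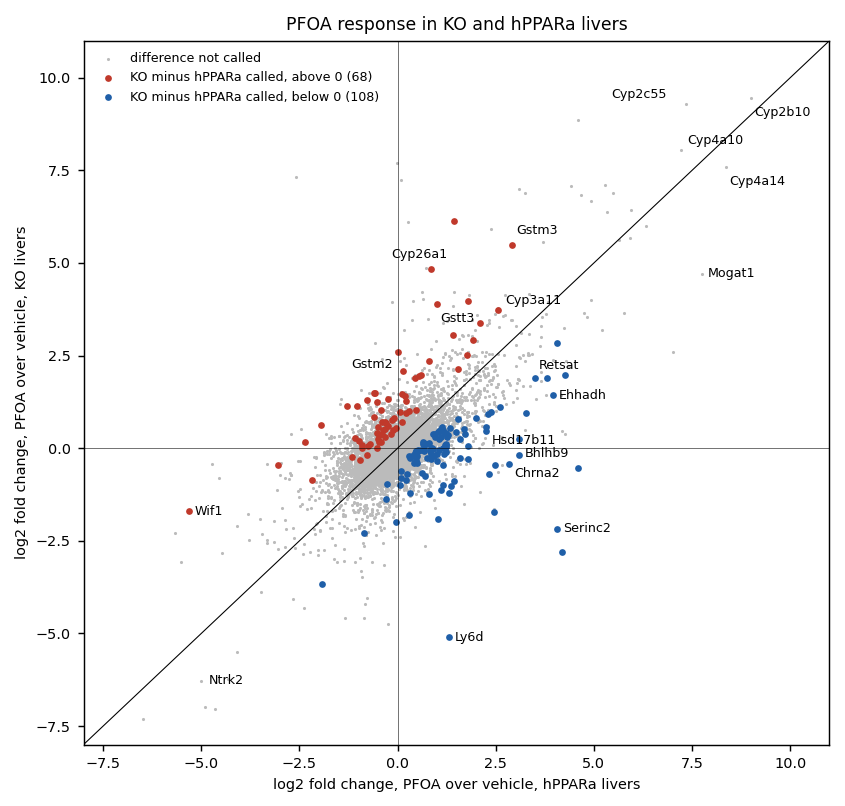
Log2 fold change with PFOA in KO livers (vertical axis) against that in hPPARa livers (horizontal axis), 1 point per gene tested (14341), with equal responses on the diagonal. The 68 genes with a called difference above 0 lie above the diagonal and the 108 below 0 lie under it; Cyp2b10, Cyp4a10 and Cyp4a14 were strongly raised in both genotypes.

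Ehhadh and other genes of peroxisomal fatty acid oxidation had a smaller PFOA response in KO than in hPPARa livers. Ehhadh, the peroxisomal bifunctional enzyme, was at 337 to 666 CPM in KO PFOA livers (median 401) and at 185, 135, 164 and 181 CPM in KO vehicle livers. In hPPARa livers it was at 4120, 3250, 2730, 2820 and 3010 CPM on PFOA and at 213, 218, 279, 208 and 164 CPM on vehicle. No library of a PFOA group overlapped its own vehicle group, and every hPPARa PFOA library was above every KO PFOA library. Ehhadh rose 2.70-fold in KO livers and 15.5-fold in hPPARa livers, a log2 difference of −2.52 ± 0.23 (SE; adjusted p = 3.49e-06), and −2.37 ± 0.26 without KO female vehicle replicate 1.

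Hsd17b11, a short-chain dehydrogenase found on lipid droplets, had 113 to 172 CPM in KO PFOA livers (median 133), with 102, 106, 92 and 117 CPM in KO vehicle livers. The hPPARa livers had 595, 507, 679, 592 and 675 CPM on PFOA and 106, 137, 102, 152 and 126 CPM on vehicle. The KO groups lay next to each other with 1 PFOA library inside the vehicle range, while every hPPARa PFOA library was above every hPPARa vehicle library. The log2 fold change was 0.46 in KO and 2.24 in hPPARa livers, and the difference was −1.78 ± 0.15 (adjusted p = 2.55e-06; −1.65 ± 0.16 without KO female vehicle replicate 1).

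Of 36 tested genes of peroxisomal and microsomal fatty acid oxidation, 0 had a difference above 0 and 6 below 0 that passed the test, with a median log2 difference of −0.55 against a median of 0 over all genes, and 31 of the 36 lay below 0. In KO livers 22 of them rose and 1 fell, and in hPPARa livers 28 rose and 1 fell. Over all genes tested, the background for this and each later list, 0.474% had a called difference above 0 and 0.753% below 0. Of all genes, 8.77% rose and 7.21% fell in KO livers, and 13.3% rose and 11.1% fell in hPPARa livers. Acot8, a peroxisomal acyl-CoA thioesterase, stood at 5.88 to 8.07 CPM in KO PFOA livers and 6.8 to 7.3 in KO vehicle livers, against 16.4 to 22.3 in hPPARa PFOA livers and 8.85 to 10.2 in hPPARa vehicle livers. Its KO groups overlapped and its hPPARa groups did not (difference −0.92 ± 0.13, adjusted p = 0.00158). Pex11a, which promotes the division of peroxisomes, had a difference of −1.05 ± 0.19, Acaa1a, a peroxisomal thiolase, one of −0.65 ± 0.14, and Acot1, a cytosolic acyl-CoA thioesterase with close paralogs among which reads could be split, one of −1.9 ± 0.40. Without KO female vehicle replicate 1, Ehhadh, Acot8 and Pex11a still passed and Acaa1a and Acot1 did not. Without all 3 KO libraries that held Y-linked or Xist transcripts against their label, 2 of the 36 genes had a called difference below 0.

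The ω-hydroxylase genes Cyp4a10 and Cyp4a14, which are much used as PPARα targets, showed a difference in level between the genotypes and no called difference in fold change. Cyp4a10 was at 149 to 679 CPM (median 468) in KO PFOA livers and at 0.313, 0.6, 1.9 and 2.97 CPM in KO vehicle livers. It was at 4880, 4060, 3920, 3730 and 4310 CPM in hPPARa PFOA livers and at 48.4, 64.1, 87.8, 17.7 and 4.64 CPM in hPPARa vehicle livers. On PFOA and on vehicle alike, every KO library was below every hPPARa library of that exposure. Because the KO vehicle level was so low, the rise was 266-fold in KO and 150-fold in hPPARa livers (log2 difference 0.83 ± 0.97, 95% interval −1.24 to 2.90, adjusted p = 0.758). Cyp4a14 averaged 298 CPM on PFOA and 1.87 CPM on vehicle in KO livers, and 8778 CPM on PFOA and 52.5 CPM on vehicle in hPPARa livers, with a log2 difference of −0.76 ± 1.2 (95% interval −3.33 to 1.82). On vehicle its level was 59.8, 79.9 and 107 CPM in hPPARa females and 11.7 and 4.17 in hPPARa males. The KO female had 0.626 CPM and the KO males 0.6, 1.76 and 4.48, so the male vehicle groups overlapped. The differences without KO female vehicle replicate 1 were 0.16 for Cyp4a10 and −0.97 for Cyp4a14, neither of them called. The intervals with all libraries include differences of more than 2-fold in either direction, and Cyp4a genes have near-identical copies whose reads the counting could have split.

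The differences that passed the test among mitochondrial fatty acid oxidation genes were also below 0. Of 25 tested genes, 0 had a called difference above 0 and 4 below 0, the median difference was −0.48, and 24 of the 25 lay below 0. In KO livers 9 rose and 1 fell, and in hPPARa livers 19 rose and 0 fell, where 8.77% and 13.3% of all genes rose. Hadha, the α subunit of the trifunctional protein of long-chain β-oxidation, had 382 to 469 CPM in KO PFOA livers and 325 to 358 CPM in KO vehicle livers, against 597 to 770 CPM in hPPARa PFOA livers and 313 to 394 CPM in hPPARa vehicle livers. Its difference was −0.81 ± 0.13 (adjusted p = 0.00536), and that of Hadhb, the β subunit, was −0.95 ± 0.17 (adjusted p = 0.00849). Acadm, the medium-chain acyl-CoA dehydrogenase, rose by 0.41 in KO and by 1.19 in hPPARa livers (difference −0.78 ± 0.15, adjusted p = 0.0122). Acadm was the only 1 of the 4 called genes whose KO response itself passed, and without KO female vehicle replicate 1 that response was 0.34 and did not (adjusted p = 0.0945). The differences of Hadha, Hadhb and Acadm also passed without that library, and that of Acad10, an acyl-CoA dehydrogenase family member (−1.11 ± 0.27), did not. Acsf3, the mitochondrial malonyl-CoA synthetase, which no list held, stood at −0.02 in KO and 0.68 in hPPARa livers (difference −0.70 ± 0.10, adjusted p = 0.0026).

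**Figure D2:**
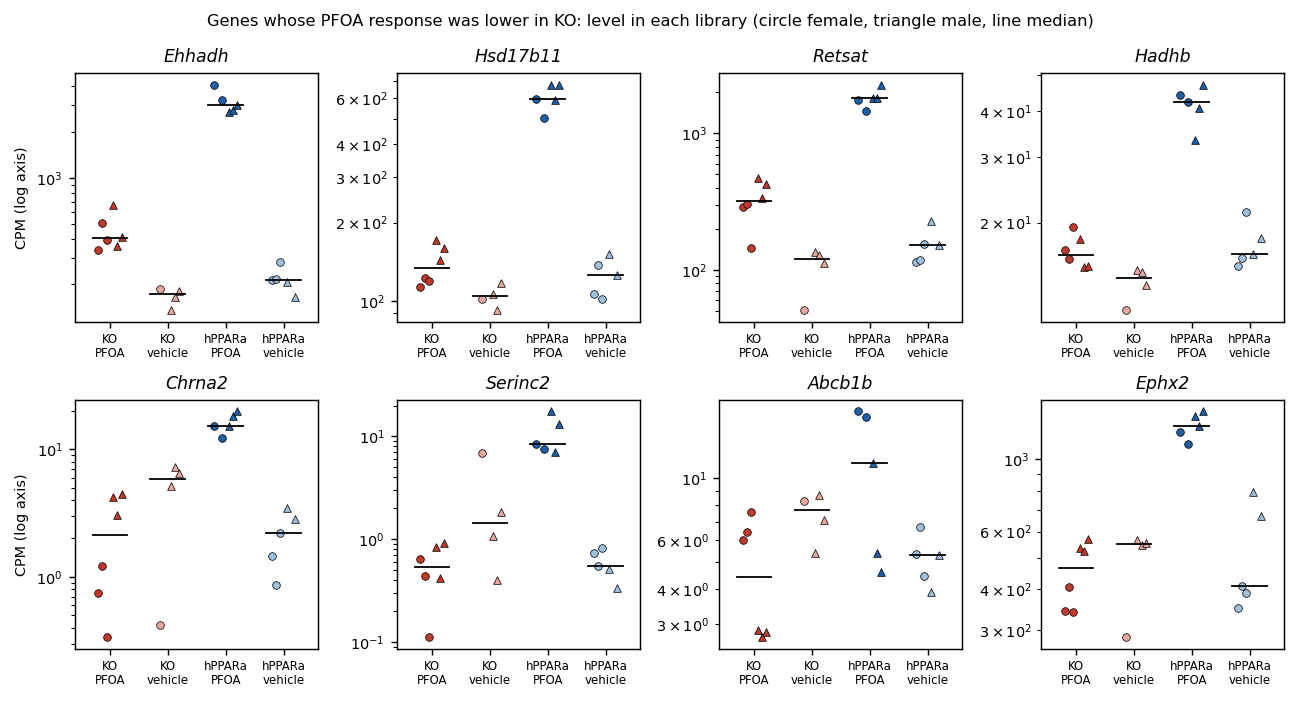
CPM in each library (log axis) of 8 genes with a called difference below 0, for KO PFOA, KO vehicle, hPPARa PFOA and hPPARa vehicle from left to right; circles are females, triangles males and lines group medians. For Ehhadh, Hsd17b11, Retsat, Hadhb, Chrna2, Serinc2 and Ephx2 all 5 hPPARa PFOA libraries lie above all hPPARa vehicle libraries.

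In the list of fuel switch and secreted PPARα targets 0 of 25 genes had a called difference above 0 and 4 below 0, with a median of −0.25. Retsat, retinol saturase, had 144 to 473 CPM (median 320) in KO PFOA livers and 50.5, 136, 128 and 113 CPM in KO vehicle livers. It had 1750, 1460, 1820, 1810 and 2280 CPM in hPPARa PFOA livers and 115, 119, 154, 227 and 151 CPM in hPPARa vehicle livers. Both genotypes were thus raised without overlap, and the rise was 3.71-fold in KO and 11.4-fold in hPPARa livers (difference −1.62 ± 0.27, adjusted p = 0.00551; −1.79 ± 0.29 without KO female vehicle replicate 1).

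Pdk4, a kinase that restrains glucose oxidation, had log2 fold changes of −0.45 in KO and 2.48 in hPPARa livers (difference −2.93 ± 0.62, adjusted p = 0.033). Txnip, a thioredoxin-binding regulator of glucose uptake, had a difference of −1.2 ± 0.23, and Fabp2, a fatty acid binding protein, one of −1.15 ± 0.25. Of these 4 genes only Retsat passed without KO female vehicle replicate 1 (Pdk4 adjusted p = 0.138, Txnip 0.0608, Fabp2 0.138). Angptl4, a secreted inhibitor of lipoprotein lipase, had a difference on the other side of 0, at 0.69 ± 0.32 with that library (adjusted p = 0.337) and 1.27 without it (adjusted p = 0.00747).

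Lipid droplet and fatty acid uptake genes had 0 called differences above 0 and 4 below 0 of 27 tested, a median of −0.40 and 26 members below 0. In KO livers 6 rose and 1 fell, and in hPPARa livers 16 rose and 1 fell, where 8.77% and 13.3% of all genes rose. Plin2, the main coat protein of hepatic droplets, had 154 to 268 CPM in KO PFOA livers and 114 to 319 in KO vehicle livers, against 557 to 879 in hPPARa PFOA livers and 131 to 238 in hPPARa vehicle livers. The KO groups overlapped fully and the hPPARa groups did not (difference −1.73 ± 0.32, adjusted p = 0.0142). Cidec, a droplet fusion protein (−2.32 ± 0.54), Cd36, a fatty acid transporter (−1.51 ± 0.33), and Lipe, hormone-sensitive lipase (−0.80 ± 0.16), were the other calls. Without KO female vehicle replicate 1 none of the 4 passed, with adjusted p of 0.0553 for Plin2, 0.179 for Cidec, 0.118 for Cd36 and 0.0521 for Lipe. With all 3 KO libraries that went against their label left out, 0 of the 27 passed. The log2 difference without KO female vehicle replicate 1 was −1.28 for Plin2, −1.61 for Cidec, −1.44 for Cd36 and −0.80 for Lipe.

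Outside the oxidation lists, several differences below 0 were as large or larger. Chrna2, a nicotinic acetylcholine receptor subunit, had 0.336 to 4.48 CPM in KO PFOA livers and 0.417, 5.2, 7.25 and 6.5 CPM in KO vehicle livers. It had 15.3, 12.2, 15.1, 18.4 and 19.8 CPM in hPPARa PFOA livers and 1.47, 0.858, 2.22, 3.44 and 2.83 CPM in hPPARa vehicle livers. The KO groups overlapped, with females below males in both, and the hPPARa groups were fully apart (difference −3.26 ± 0.39, adjusted p = 0.000307; −3.51 without KO female vehicle replicate 1).

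Serinc2, of the serine incorporator family, was at 0.112 to 0.932 CPM in KO livers on PFOA, against 6.88 CPM in KO female vehicle replicate 1 and 0.406 to 1.83 CPM in the other KO vehicle libraries. In hPPARa livers it was raised to 6.99 to 17.5 CPM on PFOA, against 0.336 to 0.834 CPM on vehicle. Its difference was −6.22 ± 0.81 with that library and −4.65 ± 0.69 without it (adjusted p = 0.00187 and 0.00321). Bhlhb9 had a difference of −3.29 ± 0.46 (adjusted p = 0.00158), Nrp2, a semaphorin and VEGF co-receptor, one of −1.62 ± 0.25, and Ephx2, the soluble epoxide hydrolase, one of −1.14 ± 0.18, and all 3 also passed without that library. Gal3st1, a sulfotransferase of sulfatide synthesis, had a difference of −5.13 ± 0.81 that became −3.08 without it (adjusted p = 0.00409 and 0.151). In hPPARa livers Gal3st1 had 3.71 to 9.19 CPM on PFOA and 0.0649 to 0.492 CPM on vehicle. In KO livers it had 0.213 to 0.504 CPM on PFOA, 1.2 CPM in KO female vehicle replicate 1 and 0.126 to 0.135 CPM in KO male vehicle livers. The size of its difference rests on these low levels. Ly6d had a difference of −6.40 ± 1.30 that became −2.89 without KO female vehicle replicate 1 (adjusted p = 0.0266 and 0.311). Markers of bile duct cells were, like Ly6d, highest in KO female vehicle replicate 1. They did not follow Gal3st1, which was highest in hPPARa PFOA livers, where the marker sums overlapped those of hPPARa vehicle livers. The 8 marker genes, of which 0 were without counts in any group, summed to 16 to 47 CPM in KO PFOA livers and 50.9 to 197 in KO vehicle livers, against 16.3 to 46.4 in hPPARa PFOA livers and 31.4 to 39 in hPPARa vehicle livers. All 4 KO vehicle libraries lay above every library of the other groups, at 197 CPM in KO female vehicle replicate 1 and 50.9 to 68.5 in the males. Their part in these results was not tested. In bulk RNA, fewer cells of a type and less RNA per cell cannot be told apart.

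CAR and PXR targets went the other way. Of 50 tested genes, 8 had a called difference above 0 and 0 below 0, with a median difference of 0.48 and 37 of the 50 above 0. In KO livers 36 rose and 1 fell, and in hPPARa livers 30 rose and 2 fell, where 8.77% and 13.3% of all genes rose. Cyp2b10, the classical CAR target, was raised in both genotypes. It had 1520 to 2070 CPM in KO PFOA livers and 1.9 to 3.66 CPM in KO vehicle livers, against 862 to 1170 CPM in hPPARa PFOA livers and 0.584 to 5.42 CPM in hPPARa vehicle livers. Its log2 fold changes were 9.46 in KO and 9.0 in hPPARa livers (difference 0.46 ± 0.57, 95% interval −0.74 to 1.67, adjusted p = 0.772; 0.33 and 0.895 without KO female vehicle replicate 1).

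Gstm2, a glutathione transferase, had 208 to 374 CPM (median 252) in KO PFOA livers and 71.1, 80.2, 34.5 and 72 CPM in KO vehicle livers. It had 81.5, 86, 112, 88.4 and 99 CPM in hPPARa PFOA livers and 98.9, 85.9, 97.9, 76.5 and 71.3 CPM in hPPARa vehicle livers. The KO groups were fully apart and the hPPARa groups overlapped (difference 1.94 ± 0.31, adjusted p = 0.00535; 2.12 without KO female vehicle replicate 1). Gstt3, of another glutathione transferase class, rose 8.36-fold in KO and 2.64-fold in hPPARa livers (difference 1.67 ± 0.26, adjusted p = 0.00479; 2.03 without that library). Gstm3 rose by 5.49 in KO and 2.91 in hPPARa livers on the log2 scale (2.58 ± 0.55, adjusted p = 0.0357; 0.0678 without it). Gstm genes are close paralogs, so single values are uncertain.

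Cyp3a11, the classical PXR target of mouse liver, had 13900 to 20700 CPM in KO PFOA livers and 946 to 1840 CPM in KO vehicle livers, against 7350 to 11200 CPM in hPPARa PFOA livers and 1270 to 2130 CPM in hPPARa vehicle livers. PFOA and vehicle groups did not overlap in either genotype, and the difference was 1.19 ± 0.28 (adjusted p = 0.04), or 1.55 ± 0.26 without KO female vehicle replicate 1 (adjusted p = 0.00614). Within males of both genotypes the Cyp3a11 difference was 1.06 ± 0.21. Ces2a, a carboxylesterase (0.99 ± 0.23), Cyp2c54 (0.75 ± 0.18) and Cyp2c50 (0.59 ± 0.13), drug-metabolising P450s, and Sult1d1, a sulfotransferase (0.94 ± 0.20), made up the 8 calls. Without KO female vehicle replicate 1 the list had 5 calls above 0, which were Cyp3a11, Gstm2, Gstt3, Sult1d1 and Slco1a4, an organic anion transporter, and leaving out all 3 KO libraries that went against their label left 3. Cyp2c55 rose by 9.30 in KO and 7.34 in hPPARa livers, a difference that did not pass (1.96 ± 0.48, adjusted p = 0.0537).

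**Figure D3:**
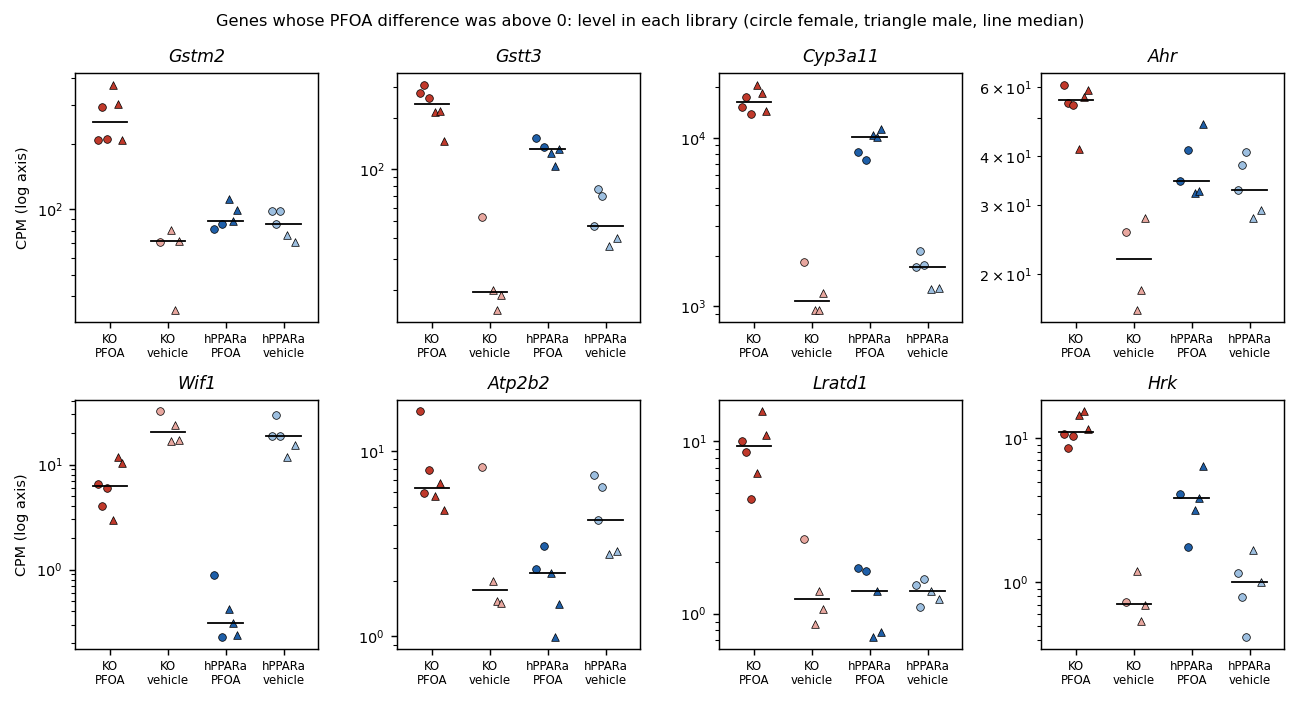
CPM in each library (log axis) of 8 genes with a called difference above 0, for KO PFOA, KO vehicle, hPPARa PFOA and hPPARa vehicle from left to right; circles are females, triangles males and lines group medians. Gstm2 and Lratd1 are raised in the KO panels with overlapping hPPARa groups, and Wif1 is lowered in both genotypes, furthest in hPPARa.

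Among the other genes above 0, Cyp26a1, the retinoic acid hydroxylase, was raised to 13.6 to 32.1 CPM in KO PFOA livers, against 0.333 to 1.35 CPM in KO vehicle livers, with 3.22 to 10.6 CPM in hPPARa PFOA livers and 1.23 to 9.81 CPM in hPPARa vehicle livers. Its difference was 4.0 ± 0.78 (adjusted p = 0.0204), and 3.6 without KO female vehicle replicate 1 (adjusted p = 0.0797). Ahr, the aryl hydrocarbon receptor, rose by 1.27 in KO livers and stood at 0.22 in hPPARa livers (difference 1.06 ± 0.22, adjusted p = 0.0192; 1.12 and 0.046 without that library). Of 6 tested AHR targets 0 had a called difference by edgeR and 2 had an unadjusted p under 0.05, against 2059 of all 14341 genes. Lratd1 had a difference of 2.58 ± 0.50 and Hrk, a BH3-only cell death protein, one of 2.19 ± 0.42, and both also passed without that library.

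The stress transcription factor genes Ddit3 (CHOP; 1.44 ± 0.35) and Atf4 (0.57 ± 0.14) were the 2 calls among 21 integrated stress and unfolded protein response genes. Atf4 passed without KO female vehicle replicate 1 and Ddit3 did not (adjusted p = 0.0678). Of 25 acute phase genes 2 were called, the orosomucoid paralogs Orm2 (1.40 ± 0.31) and Orm3 (2.06 ± 0.47), and both also passed without that library. The acute phase list had a median difference of 0.27.

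Wif1, a secreted Wnt inhibitor, fell in both genotypes with all libraries, and further in hPPARa livers. It had 2.97 to 11.9 CPM (median 6.23) in KO PFOA livers and 32, 16.7, 23.9 and 17.2 CPM in KO vehicle livers. It had 0.896, 0.227, 0.426, 0.31 and 0.241 CPM in hPPARa PFOA livers and 18.5, 29.5, 18.6, 11.7 and 15.5 CPM in hPPARa vehicle livers. PFOA groups lay below vehicle groups without overlap in both genotypes. The fall was 3.23-fold in KO and 39.8-fold in hPPARa livers (difference 3.63 ± 0.61, adjusted p = 0.0101; 4.12 ± 0.58 without KO female vehicle replicate 1). Without that library the KO response was −1.19 on the log2 scale and did not pass (adjusted p = 0.0522).

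Opposite responses that passed the test in each genotype were seen for 14 genes, of which 2, Abcb1b and Atp2b2, were called oppositely in both genotypes also without KO female vehicle replicate 1. Abcb1b, a P-glycoprotein transporter, fell by 0.98 in KO livers and rose by 1.16 in hPPARa livers (difference −2.14 ± 0.38, adjusted p = 0.0101). In KO PFOA livers its 3 males had 2.86, 2.69 and 2.8 CPM and its 3 females 6.03, 6.42 and 7.57 CPM, while in hPPARa PFOA livers the 3 males had 11.4, 5.39 and 4.63 CPM and the 2 females 17.4 and 16.6 CPM. Vehicle livers had 5.4 to 8.74 CPM in KO and 3.9 to 6.68 CPM in hPPARa, so with the sexes pooled the exposure groups overlapped in both genotypes. Within KO males (5.4 to 8.74 CPM on vehicle) and hPPARa females (4.45 to 6.68 CPM on vehicle) they did not overlap. Within hPPARa males (3.9 and 5.32 CPM on vehicle) they did, and KO females had a single vehicle library, at 8.29 CPM. Atp2b2, a plasma membrane calcium pump, rose by 1.14 in KO livers and fell by 1.03 in hPPARa livers (difference 2.17 ± 0.45, adjusted p = 0.0204). With the sexes pooled its exposure groups overlapped too, at 4.78 to 16.3 CPM on PFOA and 1.51 to 8.19 on vehicle in KO livers. In hPPARa livers Atp2b2 had 0.99 to 3.06 CPM on PFOA and 2.79 to 7.43 on vehicle. Within KO males, hPPARa males and hPPARa females its exposure groups did not overlap. The KO female vehicle library, at 8.19 CPM, lay within the range of the KO females on PFOA. Grk3, a G protein-coupled receptor kinase (−0.75 in KO, 0.71 in hPPARa livers), and Tra2b, a splicing factor (0.36 in KO, −0.47 in hPPARa livers), were further cases. For Grk3, Tra2b and Serinc2 the difference passed without that library and the KO response did not (adjusted p = 0.0622, 0.108 and 0.536), Serinc2 standing at −0.59 in KO livers, against −2.17 with it. For Tmem98, Nrp1, Lipe, Car8, Rbm27, Shroom1 and Mad1l1 neither passed.

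**Figure D4:**
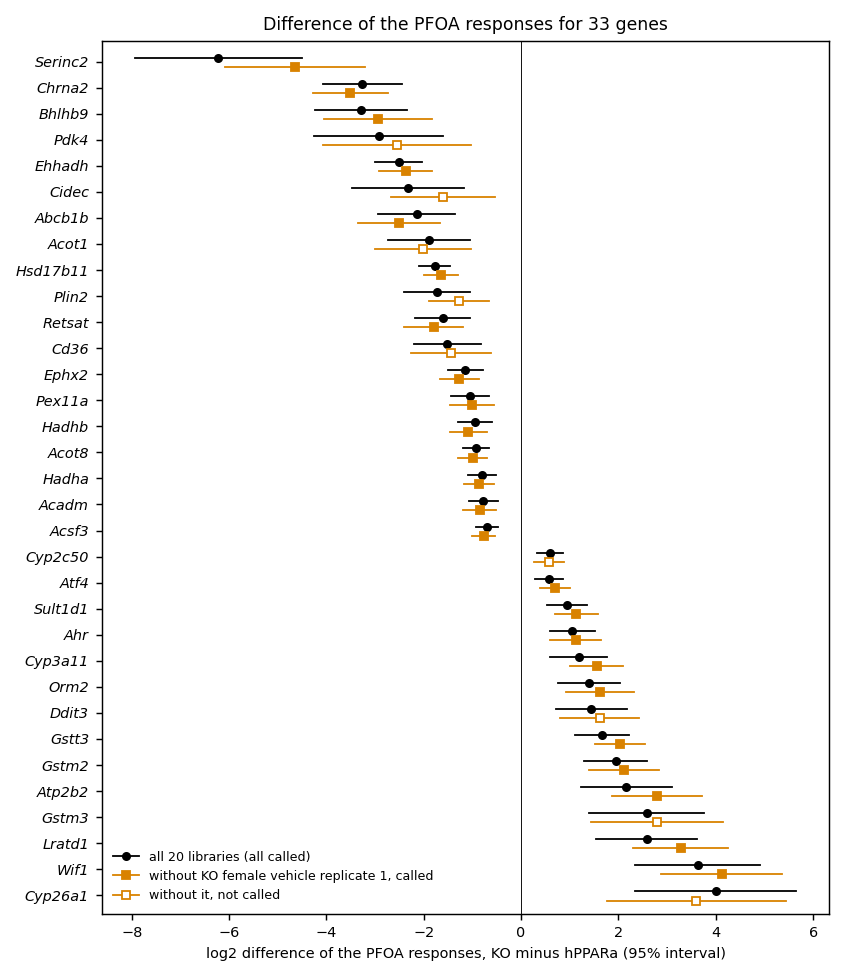
Log2 difference of the PFOA responses, KO minus hPPARa, with its 95% interval for a selection of genes called with all 20 libraries (black), and the same without KO female vehicle replicate 1 (orange, filled where called and open where not). Ehhadh stands at −2.52 and −2.37 and Gstt3 at 1.67 and 2.03, whereas Plin2, Cidec, Cd36, Pdk4 and Gstm3 are open without that library.

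Genes called in both genotypes in the same direction, changed at least 2-fold in both and with a 95% interval of the difference inside −1 to 1, numbered 75, of which 55 rose and 20 fell. The same rule took 69 genes without KO female vehicle replicate 1, 44 of them among the 75. Among the 55 that rose were Gstm4, a glutathione transferase (log2 fold change 2.20 in KO, 2.03 in hPPARa livers), Racgap1, a cytokinesis regulator (2.23 in KO, 2.04 in hPPARa livers), Mki67, the proliferation marker (1.99 in KO, 1.97 in hPPARa livers), and Rnf125, a ubiquitin ligase (1.95 in KO, 2.25 in hPPARa livers). The 20 that fell included Rnase4, a secreted ribonuclease (−1.29 in KO, −1.17 in hPPARa livers), and C9, a complement component (−1.54 in KO, −1.45 in hPPARa livers). Cell cycle genes had 1 called difference of 34, Mcm3, a replication helicase subunit (−0.89 ± 0.22), which did not pass without KO female vehicle replicate 1 (adjusted p = 0.258), and their median difference was −0.31, with 28 of the 34 below 0. In KO livers 14 of the 34 rose and 1 fell, and in hPPARa livers 18 rose and 2 fell, where 8.77% and 13.3% of all genes rose.

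Interferon response and antigen presentation genes had 0 calls of 28 by edgeR, 13 at an unadjusted p under 0.05, 3 by DESeq2 and 0 by limma-voom. Over all 14341 genes tested, 2059 had an unadjusted p under 0.05 by edgeR. All 28 interferon and antigen presentation genes lay above 0, with a median of 0.87 (0.99 and 0 calls without KO female vehicle replicate 1). Of them 2 fell in KO livers and 14 in hPPARa livers, where 7.21% and 11.1% of all genes fell. Markers of Kupffer cells, the resident macrophages of the liver, had 0 calls of 12 by edgeR, 10 at an unadjusted p under 0.05, 4 by DESeq2 and 0 by limma-voom, with a median of 0.85 (0.89 and 0 calls without that library) and all 12 above 0. Their summed level was 338 to 568 CPM in KO PFOA livers and 175 to 391 in KO vehicle livers, against 166 to 427 in hPPARa PFOA livers and 186 to 551 in hPPARa vehicle livers, so that all groups overlapped. The calcium-binding protein gene S100a8 was raised to 87.9 to 324 CPM in KO PFOA livers, against 0.252 to 0.542 CPM in KO vehicle livers. In hPPARa livers it was at 2.85 to 8.51 CPM on PFOA and 0.123 to 0.278 CPM on vehicle. The log2 fold changes were 8.85 in KO and 4.60 in hPPARa livers, and the difference did not pass (4.26 ± 1.30, adjusted p = 0.133; 4.44 and 0.192 without that library). S100a9, its partner in neutrophils, did not exceed 2.03 CPM in any library.

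**Figure D5:**
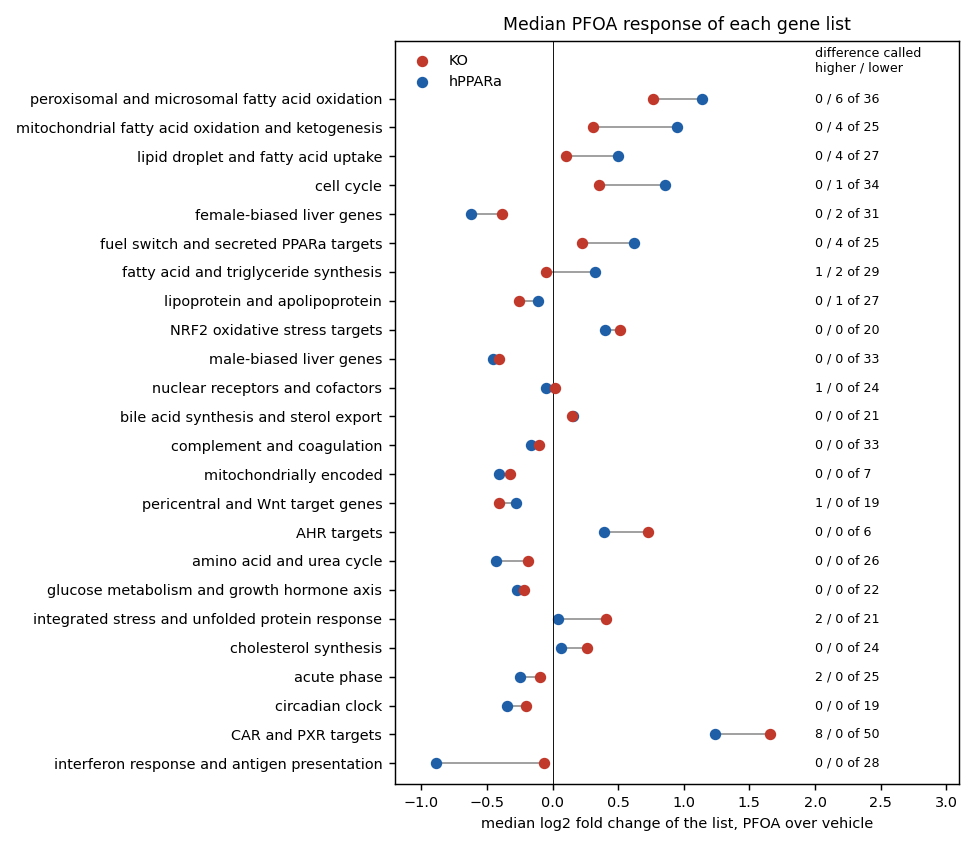
Median log2 fold change with PFOA of each gene list, cell type marker lists left out, in KO livers (red) and hPPARa livers (blue), with the number of members whose difference was called above 0 and below 0 at the right. The lists shown run from the lowest median difference (peroxisomal and microsomal fatty acid oxidation, −0.55) to the highest (interferon response, 0.87, with 0 of 28 called).

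The sexes were compared in a model with all 8 groups. In males the difference passed for 27 genes (0.188%) and in females for 126 (0.879%), the female contrast resting on KO female vehicle replicate 1 as its only KO vehicle library. A difference between males and females passed for 1 gene (0.00697%). Ehhadh had differences of −2.37 ± 0.32 in males and −2.80 ± 0.35 in females, and Hsd17b11 of −1.63 ± 0.20 in males and −2.04 ± 0.22 in females. Gstm2 stood at 1.82 ± 0.38 in males and 1.91 ± 0.48 in females, and Gstt3 at 1.78 ± 0.26 in males and 1.28 ± 0.32 in females. Lratd1 had a difference of 3.72 ± 0.57 in males and 1.14 ± 0.60 in females, and the difference between the sexes did not pass for it or for any of these genes.

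Promoter sequences of RefSeq (build GRCm38.p6, 250 bases before to 50 after each gene's start) were at hand for 27 of the 34 genes that had a positive fold change in hPPARa livers and a called difference below 0 both with and without KO female vehicle replicate 1. They were at hand for 24 of the 27 genes with such a difference above 0. A direct repeat of AGGTCA with 1 base between, the element bound by PPARα with RXR, was sought on both strands with up to 2 mismatches in 12 bases. It was found in 1 of 27 promoters (3.7%) and in 0 of 24, against 3.84% of the promoters of 10758 genes tested. The 27 are not all separate sequences, since the promoters of Hadha and Hadhb overlap, as do those of Retsat and Elmod3. The exact hexamer AGGTCA, or TGACCT on the other strand, was in 3 of 27 (11.1%) and 3 of 24 (12.5%), against 15.6%. The promoters of Acadm and Cyp3a11 are shown because these 2 genes, a mitochondrial oxidation enzyme with a difference below 0 and a xenobiotic P450 with one above 0, each held 1 such hexamer, given in capitals. Acadm lies at chr3:153944594-153944893 on the minus strand with its hexamer at −249 from the start, and Cyp3a11 at chr5:145879805-145880104 on the minus strand with its hexamer at −162. A match is a description of these letters only, and elements farther from the start were not searched.
Acadm: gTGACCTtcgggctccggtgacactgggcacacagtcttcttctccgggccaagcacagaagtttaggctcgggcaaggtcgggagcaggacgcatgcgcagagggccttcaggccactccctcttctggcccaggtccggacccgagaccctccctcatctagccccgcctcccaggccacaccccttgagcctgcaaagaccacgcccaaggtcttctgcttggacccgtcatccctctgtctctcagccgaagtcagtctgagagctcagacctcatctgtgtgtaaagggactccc
Cyp3a11: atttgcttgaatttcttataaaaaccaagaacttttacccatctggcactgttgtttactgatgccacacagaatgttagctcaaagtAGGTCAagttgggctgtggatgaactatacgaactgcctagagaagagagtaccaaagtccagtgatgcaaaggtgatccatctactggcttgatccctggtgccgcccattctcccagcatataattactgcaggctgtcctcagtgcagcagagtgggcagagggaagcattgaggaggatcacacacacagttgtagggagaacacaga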

How the data were processed

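Liver RNA of 20 samples was grouped by the genotype, sex and exposure in their titles. The deposited data are raw integer counts by gene symbol (53599 symbols), which the authors gave as 1 table per genotype without normalization. The submitters' processing notes name STAR 2.5.3, cutadapt 1.15, featureCounts 1.6.1, FastQC 0.11.5, edgeR 3.36.0 and R 4.1.0, and the build GRCm39. Their roles, the annotation and whether strand was used were not stated in the sources used here. Reads of near-identical, overlapping or antisense genes could therefore be split or shared, and no coordinates of the files are given.

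The tables were joined by symbol and fitted together with edgeR 4.0.16 in R 4.3.3. The filter on low counts went by the 4 groups of genotype and exposure (minimum count 10), scaling was by TMM (factors 0.891 to 1.07), and the robust quasi-likelihood test had a mean, a sex term and a PFOA term for each genotype. P-values were adjusted by Benjamini-Hochberg over all genes tested, with a threshold of 0.05. An SE is the log2 value divided by the square root of F. Effects within a sex came from a model of 8 groups. The test was tried on simulated data first. Libraries of a group differed beyond counting noise (chi-square per gene 7.31 to 41.8) and each was counted as 1 sample; this does not show that they come from different animals. Alternatives were RLE size factors, other filters, DESeq2 1.42.0, limma-voom (limma 3.58.1), a replicate block, equal weight for the sexes and leaving out libraries.

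The genes and lists were chosen with earlier results of these data known. The rule for named genes took a fixed set of 30 genes; the 12 highest and 12 lowest differences and the 12 smallest adjusted p, at a mean of at least 1 CPM and without predicted genes; up to 4 called members of each list; up to 12 genes called in opposite directions; and the 8 highest and 8 lowest shared responses. S100a8, S100a9, Krt19, Slco1a4, Acaa1a, Ces2a and Cyp2c54 fall outside it and were named after their values were seen. The text gives fewer genes than the rule takes, and some are not reported here.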

Additional observations from a re-analysis of the deposited data

Results flagged for a closer look

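Ezr, which encodes the membrane-cytoskeleton linker ezrin, was the 1 gene whose difference of PFOA responses, KO minus hPPARa, itself differed between the sexes. The difference was 0.24 ± 0.26 (SE) in males and −2.66 ± 0.28 in females, and male minus female was 2.90 ± 0.38 on the log2 scale (edgeR, Benjamini-Hochberg adjusted p = 0.00556). KO female vehicle replicate 1 had 39.2 CPM of Ezr, and the other 19 libraries had 3.31 to 7.08 CPM. That library is the only KO vehicle library of a female, so the value cannot be computed without it.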

How the results depend on the processing

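The count of 176 differing genes (68 above 0, 108 below 0) was 316 (115 and 201) with equal weight for the sexes, 545 (252 and 293) with no filter on low counts, 421 (190 and 231) with DESeq2 and 41 (24 and 17) without the 3 KO libraries that held Y-linked or Xist transcripts against their label. Without the filter the median of all differences was 0.0914. With RLE size factors, the 8-group filter and limma-voom the counts were 182, 185 and 178. With single libraries left out they ran from 74 to 239, above 0 from 23 to 83 and below 0 from 42 to 156. KO calls (2291) were 926 without those 3 libraries, and hPPARa calls (3502) ran from 2242, without hPPARa female PFOA replicate 1, to 3817 with single libraries left out. The male difference (27) was 194 unfiltered, 125 with DESeq2 and 16 without the 3 libraries, and ran from 10 to 42 with single libraries left out. The female difference (126) was 556 unfiltered, 398 with DESeq2 and 201 with limma-voom, and ran from 22, without hPPARa female PFOA replicate 1, to 205. The difference between the sexes (1) was 74 unfiltered and 14 with DESeq2, and ran from 1 to 3. The female and sex contrasts cannot be computed without KO female vehicle replicate 1. With the replicate block the count was 159 (61 and 98), 139 of them among the 176. Deviations of same-numbered libraries from their group means had correlations of −0.139 to 0.374 (median 0.0164 over 52 pairs). Libraries of different number had −0.29 to 0.168 (median −0.0096 over 102 pairs). With so few libraries per group this cannot decide whether the numbers pair some of the samples. Of 66 named genes called, 16 kept their call under all 28 alternatives, 32 without KO female vehicle replicate 1 and 20 without the 3 libraries, and 0 reversed direction. The 16 were Abcb1b, Acadm, Acsf3, Acot8, Chrna2, Bhlhb9, Ehhadh, Ephx2, Gstm2, Hadhb, Serinc2, Retsat, Hsd17b11, Gstt3, Hadha and Wif1. DESeq2 called 11 peroxisomal, 10 mitochondrial and 6 lipid droplet genes below 0 and 11 CAR and PXR targets above 0, against 6, 4, 4 and 8 by edgeR, and without the 3 libraries these were 2, 3, 0 and 3. The cause of these shifts was not tested. With 1 to 3 libraries per sex and group, and a median SE of 0.216 for the difference, small differences could be missed.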

Other observations

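Fatty acid and triglyceride synthesis genes held called differences in both directions. Of 29 tested, Acacb, the acetyl-CoA carboxylase at the mitochondrial membrane (−1.14 ± 0.26 SE), and Fads2, a fatty acid desaturase (−1.36 ± 0.28), had a difference of PFOA responses, KO minus hPPARa, below 0 on the log2 scale. Elovl1, an elongase of very long chains, had one above 0 (0.55 ± 0.13), and the median of the list was −0.14. Fads2 had log2 fold changes of −0.34 in KO and 1.02 in hPPARa livers. Without KO female vehicle replicate 1 none of the 3 passed (edgeR, Benjamini-Hochberg adjusted p of 0.171 for Acacb, 0.0823 for Fads2 and 0.138 for Elovl1). Sort1, a sorting receptor, was the 1 call of 27 lipoprotein genes. It fell by 2.29 in KO livers and by 0.85 in hPPARa livers (difference −1.44 ± 0.30, adjusted p = 0.018, and 0.0608 without that library).

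Lists of cholesterol synthesis (24 genes tested, median difference 0.27), bile acid synthesis (21, 0.07), amino acid and urea cycle (26, 0.16), complement and coagulation (33, 0.12) and the circadian clock (19, 0.28) had 0 called differences by edgeR. At an unadjusted p under 0.05 they had 2, 8, 2, 3 and 1 genes in the order named, against 2059 of all 14341 genes tested. DESeq2 called 5 bile acid genes, 1 clock gene and 0 of the other 3 lists, and limma-voom 1 bile acid gene. Hepatocyte markers had 0 calls of 10 by edgeR and limma-voom, 1 by DESeq2 and 5 at an unadjusted p under 0.05. All 10 hepatocyte markers had a difference above 0, with a median of 0.37. Their median log2 fold change was −0.36 in KO and −0.63 in hPPARa livers.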
